A study of Mus musculus with 29 samples.

Results

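Expression of 7 mesothelial marker genes (Upk3b, Upk1b, Msln, Lrrn4, Gpm6a, Bnc1 and Muc16) was examined in cultured stromal vascular fraction (SVF), the crude mix of non-adipocyte cells that collagenase digestion frees from white adipose tissue. The genes were chosen by name as markers of the mesothelium, with earlier results of these data known. All 7 were found among the 56953 features of the count table by their Ensembl gene IDs. Bulk Smart-seq3 libraries had been made from 29 wells of SVF from male and female C57BL6/J mice, grown for 4 days in PM1 preadipocyte medium, and every well had received 1 nM basic FGF. Inguinal fat (iWAT, a subcutaneous depot) gave 10 wells labelled male and 9 labelled female, and perigonadal fat (pgWAT, a visceral depot) gave 4 labelled male and 6 labelled female. No animal ages are in the labels, and the study gives only an age range for the adult mice of its in vitro experiments. Per the study, the wells were technical replicates from a few independent experiments per depot. The labels do not tie a well to an experiment, so wells stand in for replicates here and the p-values carry no information on how animals vary.

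The mesothelium is a single sheet of flattened, keratin-bearing epithelial cells of mesodermal origin that lines the peritoneal, pleural and pericardial cavities. Visceral fat pads such as pgWAT are covered by it, whereas subcutaneous fat lies outside the body cavities. Upk3b and Upk1b encode uroplakins, membrane proteins first known from the urothelium of the bladder, and Upk1b is a tetraspanin. Msln encodes mesothelin, a glycoprotein tethered to the cell surface, and Muc16 the large mucin (CA125) that binds it. Lrrn4 encodes a leucine-rich repeat membrane protein and Gpm6a a membrane glycoprotein, both also known from neurons. Bnc1 encodes basonuclin, a zinc finger transcription factor of epithelia.

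Totals ranged from 316738 to 1102234 counts per iWAT library and from 315316 to 923446 counts per pgWAT library. A single count therefore stood for 0.860 to 3.26 CPM (counts scaled to the TMM-adjusted library total), and 3 counts, the limit that a count of 0 allows, for 2.58 to 9.77 CPM in a single library. These limits and the intervals below cover counting error only, since reads without molecular identifiers were included. The fibroblast markers expected of SVF cultures were present in every library, with a summed level of 6382 to 12215 CPM in iWAT and 11688 to 22743 CPM in pgWAT. Sex-linked transcripts matched the labels in all 19 iWAT libraries but in 5 of the 10 pgWAT libraries. In pgWAT male replicates 2 and 4 the X-inactivation transcript Xist was present with 0 or 1 count of 4 Y-linked genes, in pgWAT female replicates 2 and 3 Y-linked counts were present without Xist, and pgWAT female replicate 1 held both. The study mentions fewer than 10 counts of the Y-linked genes Ddx3y and Eif2s3y in female pgWAT cultures. It treats them as slight contamination that most likely left its conclusions unchanged. Here counts were summed over 4 Y-linked genes, a wider set than the study names, so the numbers are not directly comparable. These sums were 10, 23 and 26 in pgWAT female replicates 1 to 3. The group sizes that the study states also differ from those in the labels. The pgWAT groups are named as labelled, and calls that rest on the sex labels of pgWAT are given without these 5 libraries as well.

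Reference sequence upstream of 2 members called higher in pgWAT is shown because these genes were at or near 0 in every iWAT library. RefSeq start sites (build GRCm38.p6) were matched for 5 of the 7 members, and the windows run from 250 to 51 bases before the start. The Upk3b window is chr5:136038246-136038445 on the plus strand and the Lrrn4 window is chr2:132880913-132881112 on the minus strand, both printed 5′ to 3′ in the direction of transcription. Capitals mark matches to the motifs searched for on both strands, namely GGAATG for TEAD factors, GNGTGGGNG for WT1, AGATAA for the GATA family and CANNTG for the E-box.
Upk3b: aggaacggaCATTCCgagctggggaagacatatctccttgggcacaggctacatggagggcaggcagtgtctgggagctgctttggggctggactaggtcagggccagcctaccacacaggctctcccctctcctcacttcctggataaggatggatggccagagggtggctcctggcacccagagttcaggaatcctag
Lrrn4: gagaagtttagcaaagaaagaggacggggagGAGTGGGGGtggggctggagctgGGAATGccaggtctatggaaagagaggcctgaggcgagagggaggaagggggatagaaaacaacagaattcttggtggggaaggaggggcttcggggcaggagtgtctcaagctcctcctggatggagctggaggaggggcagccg
The TEAD motif was found once in each window and the WT1 motif once in that of Lrrn4, with no overlap between the matches. Of 32851 promoter windows of the same length, 10.7% held the TEAD motif, 9.69% the WT1 motif, 8.42% the GATA motif and 59.0% the E-box. Neither window held a GATA or E-box match. These matches are letters in a reference window and say nothing of binding.

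Which of the markers differed between visceral and subcutaneous cultures was asked first. Upk3b, Upk1b, Lrrn4 and Msln were higher in pgWAT, and the first 3 of these had 0 to 2 counts over all iWAT libraries together. Gpm6a, Bnc1 and Muc16 were at or near the detection limit in both depots. In an edgeR quasi-likelihood fit over all 26512 features with at least 1 count, 4 of the 7 members (57.1%) passed an FDR of 0.05 as higher in pgWAT, where 7.55% of all features did, and none was lower. The median log2 fold change of the 7 was 3.49, against -0.12 over all features of that fit. Since the members were chosen with earlier results of these data known, these values describe them and are not independent support. After the customary filter on low counts 2 members remained (Upk3b and Upk1b), and both were called higher, where 20.2% of the 8853 genes tested were. These 2 passed the filter only through their counts in pgWAT, so their count is not support for a difference. Within the labelled sexes, 4 of 7 were higher in pgWAT male against iWAT male (4.49% of all features) and 4 of 7 in pgWAT female against iWAT female (4.74%). Without the 5 libraries of doubtful label the unfiltered fit called 3 members in male cultures, where Msln was lost (FDR 0.0878), and 4 in female cultures.

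Upk3b (ENSMUSG00000042985.8) was the most abundant member in pgWAT. Its level was 19.1, 41.6, 30.5 and 34.4 CPM in pgWAT male replicates 1 to 4, and in the 6 pgWAT female libraries the lowest was 22.4, the median 45.5 and the highest 72.0 CPM. It had 0 counts in all 10 iWAT male libraries and in 8 of the 9 iWAT female libraries, and 1 count (0.860 CPM) in iWAT female replicate 5. Every pgWAT library thus lay above every iWAT library, a separation that 0.505% of the 26512 features showed. Pooled over libraries, 231 counts in pgWAT stood against 1 in iWAT, a depth-adjusted ratio of 514 with a 95% exact interval from 91.3 to 20376. The edgeR log2 fold change was 7.22 (SE 0.36, FDR 2.18e-14), a value that depends on the prior count where a group is near 0.

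Upk1b (ENSMUSG00000049436.6) was the second most abundant member by counts. It had 12.2, 10.4, 26.4 and 3.22 CPM in pgWAT male replicates 1 to 4, and 19.2 (lowest), 27.3 (median) and 42.9 CPM (highest) in pgWAT female. In iWAT it was at 0 in 18 of 19 libraries and had 2 counts (4.20 CPM) in iWAT female replicate 3. The depots overlapped in 1 library on each side, since the 3 counts of pgWAT male replicate 4 came to less than the 2 counts of that shallower iWAT library. The pooled counts were 121 and 2, a ratio of 135 with a 95% interval from 36.4 to 1124, and the log2 fold change was 5.95 (SE 0.53, FDR 1.65e-09).

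Lrrn4 (ENSMUSG00000043110.3) had 0 counts in all 19 iWAT libraries. In pgWAT male it was at 5.21, 1.73, 2.78 and 6.44 CPM in replicates 1 to 4, which is 12 counts in all. In pgWAT female it ranged from 0 through a median of 15.5 to 32.6 CPM, and the library at 0 was replicate 1, which had 15 counts of all members together. Taking 3 counts over the whole iWAT group as the limit, Lrrn4 was at least 47.2-fold higher in pgWAT (FDR 1.36e-10 in the unfiltered fit). It was higher than in every iWAT library in 9 of the 10 pgWAT libraries.

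Msln (ENSMUSG00000063011.8) was the one called member with repeated counts in iWAT. It had 3.47, 5.20, 1.39 and 5.37 CPM in pgWAT male replicates 1 to 4, and 6.41 (lowest), 10.4 (median) and 23.8 CPM (highest) in pgWAT female. In iWAT female 6 of 9 libraries held 1 to 4 counts each, up to 6.17 CPM, and in iWAT male all 10 were at 0. All 10 pgWAT libraries had at least 1 count, and 6 of them lay above every iWAT library. The pooled counts were 53 in pgWAT and 13 in iWAT, a ratio of 9.07 with a 95% interval from 4.88 to 18.1, and the log2 fold change was 3.49 (SE 0.61, FDR 2.10e-06).

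The remaining members were not called between depots. Bnc1 (ENSMUSG00000025105.11) had 26 counts over 12 of 19 iWAT libraries and 10 counts over 6 of 10 pgWAT libraries, with a pooled ratio of 0.855 (95% interval 0.368 to 1.83) and a log2 fold change of -0.24 (SE 0.63, FDR 1.00). Its level was 2.00 ± 2.16 CPM in iWAT (SD, n = 19) and 1.80 ± 1.65 CPM in pgWAT (SD, n = 10), so the depots overlapped fully. Bnc1 is overlapped by a gene on the opposite strand, 4833418N17Rik, and the sources used here do not state that counting used strand. Gpm6a (ENSMUSG00000031517.9) had 4 counts in iWAT, 2 each in male replicates 5 and 6, and 3 in pgWAT, 2 in female replicate 2 and 1 in male replicate 1. Muc16 (ENSMUSG00000109564.2) had 1 count in all 29 libraries, in pgWAT male replicate 4. No 31-base stretch of any member's longest transcript was found in the transcripts of another gene, read in the direction of transcription. Sharing with the opposite strand, and other transcripts of the members, were not checked.

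**Figure D1:**
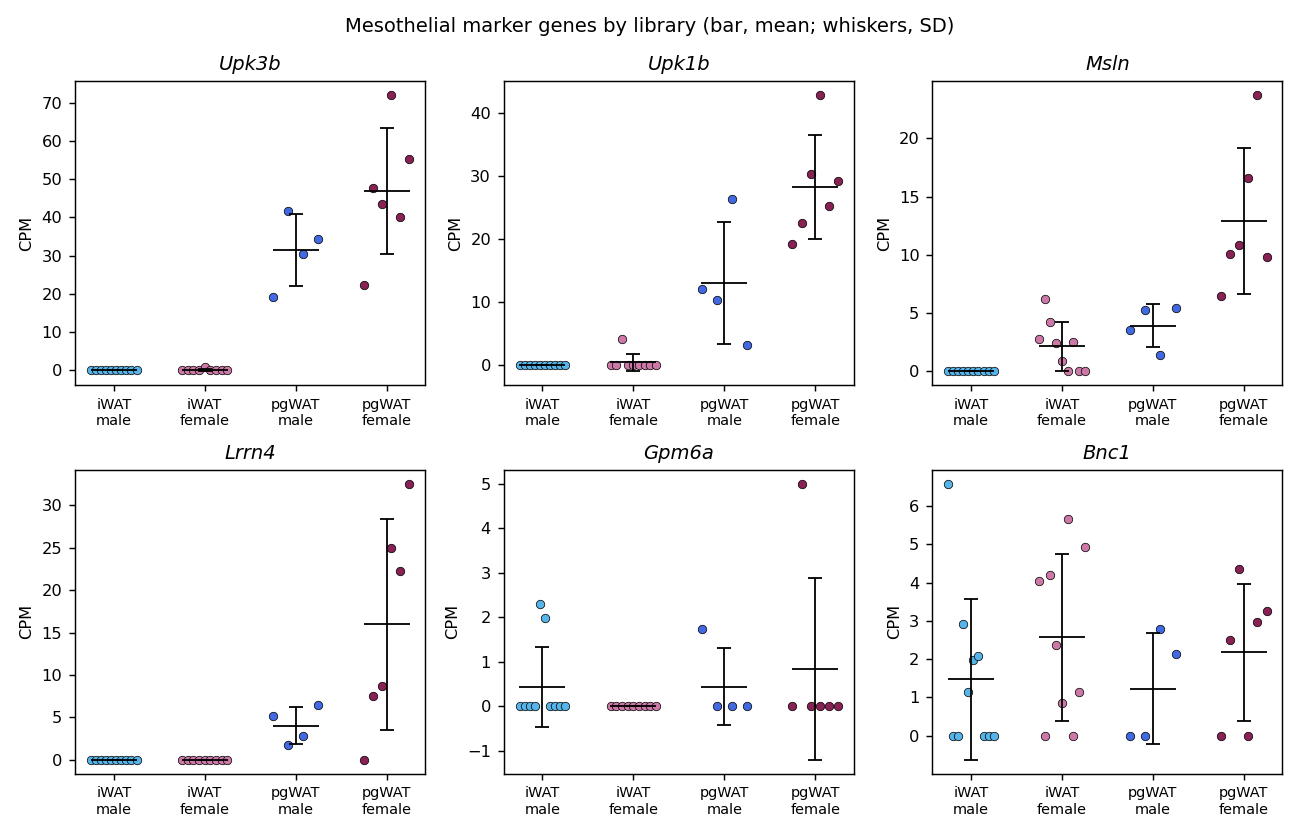
CPM of 6 members (y axes, linear, scaled per gene) in each of the 29 libraries, grouped by depot and labelled sex on the x axis; points are libraries, the horizontal bar is the mean and the whiskers the SD. Upk3b separates the depots in all 10 pgWAT libraries, Lrrn4 is at 0 in all 19 iWAT libraries, Msln is at 0 in all 10 iWAT male libraries, and Bnc1 and Gpm6a overlap. Muc16, with 1 count in all, is not drawn.

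Summed over the 7 members, the level per library gave a single value for each well. It was 41.7, 58.9, 63.9 and 52.6 CPM in pgWAT male replicates 1 to 4, and 48.0 (lowest), 106 (median) and 156 CPM (highest) in pgWAT female. In iWAT male it ran from 0 in 5 libraries to 6.59 CPM with a median of 1.04, and in iWAT female from 1.13 through a median of 4.92 to 12.6 CPM. The lowest pgWAT library was above the highest iWAT library. With both labelled sexes weighted equally the mean was 80.6 CPM in pgWAT and 3.56 CPM in iWAT, a ratio of 22.6. In bulk RNA a larger share of mesothelial cells and more marker RNA per cell cannot be told apart.

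The make-up of that sum differed between depots. In pgWAT, Upk3b gave 48.0% of the 481 member counts, Upk1b 25.2%, Lrrn4 12.9%, Msln 11.0%, Bnc1 2.08%, Gpm6a 0.624% and Muc16 0.208%. In iWAT the 46 member counts were mostly Bnc1 (56.5%) and Msln (28.3%), with Gpm6a at 8.70%, Upk1b at 4.35% and Upk3b at 2.17%. Counts of full-length libraries grow with transcript length, so levels between genes were compared per kilobase of the longest annotated transcript. On that scale Upk1b (11.7 CPM per kilobase) and Upk3b (11.5) were level in pgWAT, Msln had 4.29, Lrrn4 3.02, Bnc1 0.387 and Gpm6a 0.210, and in iWAT Msln (0.456) and Bnc1 (0.429) led. Muc16, whose longest transcript spans 25437 bases, had 0.00422 CPM per kilobase in pgWAT.

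**Figure D2:**
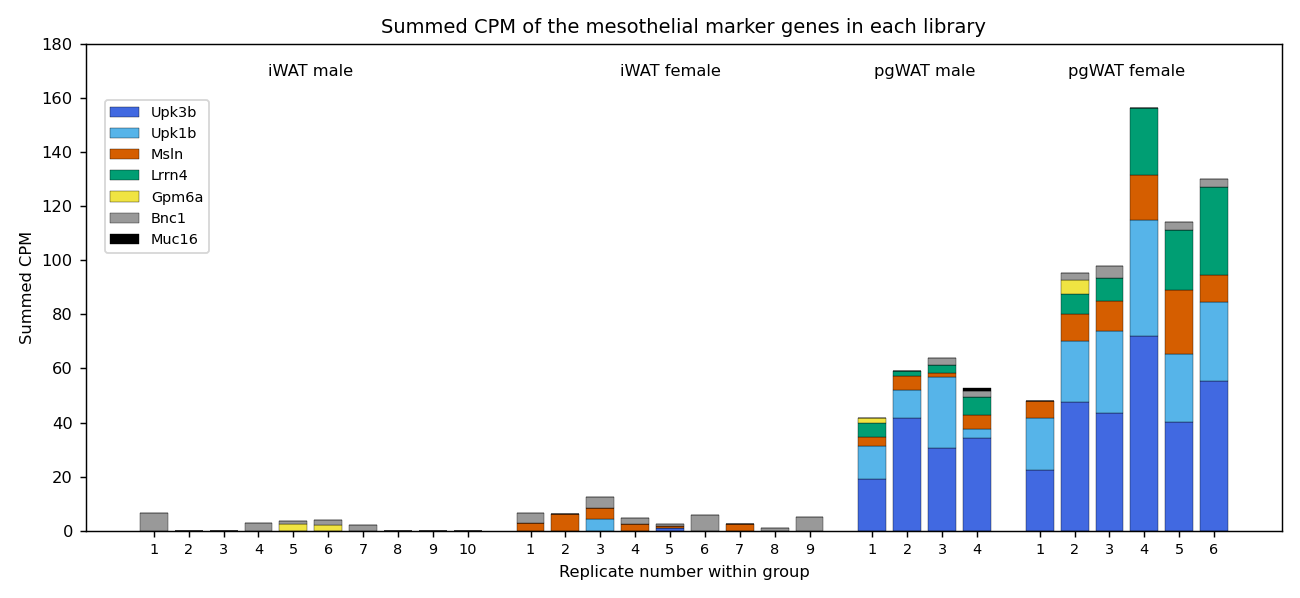
Summed CPM of the 7 members (y axis, linear from 0) in each library (x axis, replicate number within group), stacked by gene. All 10 pgWAT libraries stand between 41.7 and 156 CPM and are mostly Upk3b and Upk1b (blue), all 19 iWAT libraries stand at 12.6 CPM or below, and Lrrn4 (green) is tallest in pgWAT female replicates 4 to 6.

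The pgWAT wells were spread over 4 columns of the library plate. Those of pgWAT female came from 2 columns of the plate, replicates 1 to 3 from column 10 and replicates 4 to 6 from column 8, and these differ in sex-linked transcripts as described above. Their summed member level was 80.4 CPM on average in column 10 (range 48.0 to 97.8) and 134 CPM in column 8 (range 114 to 156). The single pgWAT male well in column 8 was the lowest of all 10 pgWAT libraries at 41.7 CPM, against 63.9 in column 7 and 55.7 on average in column 9. With 1 or 2 pgWAT male wells per column, an order by column was not tested. In pgWAT female Lrrn4 had 7 counts (0 to 8.69 CPM) in column 10 and 43 counts (22.3 to 32.6 CPM) in column 8. Upk3b, Upk1b and Msln overlapped between these columns, Upk3b at 22.4 to 47.6 and 40.1 to 72.0 CPM, and no test was made. Plate column and sex-linked transcripts cannot be told apart in these wells. Within column 8 alone, pgWAT female exceeded iWAT female for Upk3b (log2 8.31, FDR 1.08e-27), Upk1b (7.55, FDR 1.07e-15), Lrrn4 (7.19, FDR 6.62e-12) and Msln (4.20, FDR 6.43e-06), 3 wells against 3. Both pgWAT male wells of column 9, replicates 2 and 4, are among the libraries of doubtful label, and no contrast within that column is left without them. As labelled, with 2 pgWAT male against 3 iWAT male wells in column 9, Upk3b was called (log2 7.69, FDR 1.56e-13), while Upk1b (5.18, FDR 0.0512), Msln (4.90, FDR 0.0877) and Lrrn4 (4.63, FDR 0.138) were not. Where the iWAT wells of a column had 0 counts, these fitted folds depend on the prior count and bound nothing.

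Differences between the labelled sexes were tested within each depot. In iWAT, Msln was higher in female cultures, with 13 counts over 6 of 9 libraries against 0 counts in 10 male libraries, which is at least 4.02-fold, and the unfiltered log2 fold change for male minus female was -3.46 (SE 0.98, FDR 0.0328). It was the 1 member of 7 called lower in male, where 1.20% of features were, and none was called higher. The call was lost by DESeq2 (FDR 0.0800) and limma-voom (FDR 0.101), within plate column 7 alone (FDR 0.0506), without iWAT male replicate 6 (FDR 0.0544) and without iWAT female replicate 2 (FDR 0.0883), and it was kept with column as a factor (FDR 0.0107). Among the other members Bnc1 had 10 counts in male and 16 in female (log2 -0.51, SE 0.71, FDR 0.776).

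In pgWAT no member was called between the labelled sexes by edgeR, with or without the filter (0.223% of features were called in the unfiltered fit). Without the filter 3 of 7 members had an unadjusted p under 0.05. No share of all features at such an unadjusted p is given, here or below, so these counts have nothing to be set against. DESeq2 and limma-voom called neither of the 2 filtered members. The means were lower in pgWAT male for each of the 4 abundant members, at 31.4 ± 9.38 against 46.8 ± 16.5 CPM for Upk3b, 13.0 ± 9.70 against 28.3 ± 8.30 for Upk1b, 3.86 ± 1.85 against 12.9 ± 6.26 for Msln and 4.04 ± 2.16 against 16.0 ± 12.4 for Lrrn4 (SD, n = 4 and n = 6). The FDR was 0.636 for Upk3b and 0.545 for Upk1b in the filtered fit, and 0.671 for Msln and 0.608 for Lrrn4 in the unfiltered one. Since the sex-linked transcripts of 5 of these 10 libraries did not match, these values compare labels. Without those 5, leaving 2 male and 3 female wells, none was called either, with log2 fold changes of -1.18 for Upk3b (FDR 0.221), -0.77 for Upk1b (FDR 0.665), -2.78 for Msln (FDR 0.288) and -2.68 for Lrrn4 (FDR 0.231). The depot by sex interaction was called for no member (0.275% of features), with 2 of 7 at an unadjusted p under 0.05, Msln (FDR 0.703) and Gpm6a (FDR 0.652), the latter on 7 counts. It was called for none without the 5 libraries of doubtful label either.

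Other genes known from mesothelium were then taken as a list of 22, chosen with earlier results of these data known. The list holds Tcf21 and Rspo1, which the study had already reported as higher in pgWAT, so its counts are a description only. Without the filter 14 of the 22 were called higher in pgWAT (7.55% of features) and 2 lower (6.35%), with a median log2 fold change of 1.16 against -0.12 over all features. After the filter 12 remained, of which 7 were called higher (20.2% of genes tested) and 2 lower (17.9%). Tcf21, Wt1 and Aldh1a2 are at or near 0 in iWAT and were kept through pgWAT, so the filtered count is not support for a difference. Tcf21, a transcription factor of visceral mesenchyme, had 0 counts in all 19 iWAT libraries and 50.8 ± 26.9 CPM in pgWAT (SD, n = 10), at least 214-fold. Aldh1a2, the retinoic acid synthesizing enzyme, went from 2.76 ± 2.33 CPM in iWAT to 91.3 ± 41.0 in pgWAT (log2 4.96, SE 0.26, FDR 2.97e-16). Wt1, the Wilms tumor transcription factor that marks embryonic and adult mesothelium, had 6 counts over the 19 iWAT libraries and 120 over the 10 pgWAT libraries (22.3 ± 9.23 CPM; log2 4.88, SE 0.35, FDR 3.87e-13). These genes are not exclusive to mesothelium, and Tcf21, Aldh1a2 and Wt1 are also expressed by visceral adipose stromal cells.

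Smaller increases were found for the secreted protease inhibitor Slpi (log2 1.65, SE 0.26, FDR 4.04e-06), the mucin-like membrane protein Pdpn (0.91, SE 0.13, FDR 1.16e-06), the claudin Cldn15 (0.87, SE 0.19, FDR 0.000350) and ezrin, Ezr (0.85, SE 0.16, FDR 6.91e-05). The matrix protein Efemp1 (-1.14, SE 0.28, FDR 0.00129) and the membrane protein Gas1 (-0.92, SE 0.23, FDR 0.00199) were lower. Among the genes called without the filter, Nkain4 had 69 counts in pgWAT and 4 in iWAT (ratio 38.4, 95% interval 14.3 to 145), the WNT agonist Rspo1 63 and 3 (ratio 46.7, 15.3 to 232), and the polarity protein Crb2 25 and 0 (at least 19.1-fold). Between the iWAT sexes none of the 12 was called (3.22% of genes), with 4 at an unadjusted p under 0.05, and Wt1 had 3 counts in male and 3 in female. Between the labelled pgWAT sexes Slpi was at 37.3 ± 12.1 CPM in male and 131 ± 32.0 in female (SD, n = 4 and n = 6), and was called without the filter (log2 -1.80, FDR 5.45e-05) but not with it (-1.82, FDR 0.133). Without the 5 libraries of doubtful label it was again called without the filter (-1.36, FDR 0.00602) and not with it (-1.39, FDR 0.159).

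**Figure D3:**
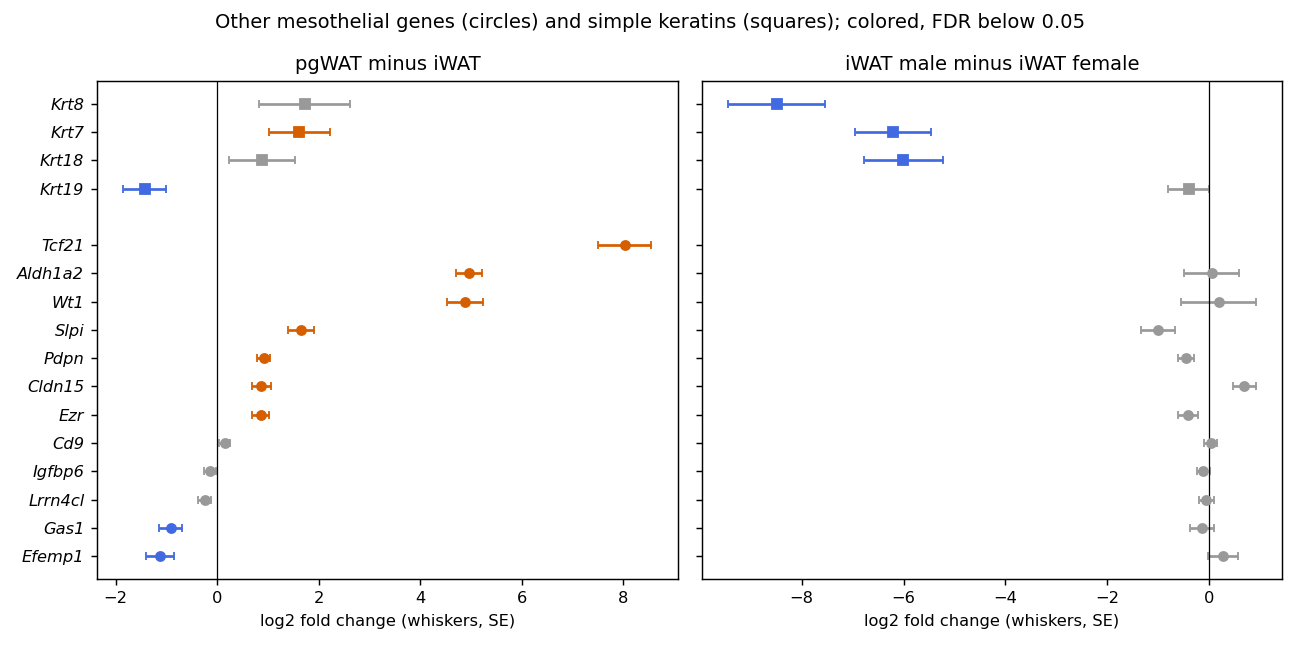
Log2 fold change (x axes) with its SE for 12 other mesothelial genes (circles) and 4 simple keratins (squares) from the filtered edgeR fit, pgWAT minus iWAT at left and iWAT male minus iWAT female at right; orange is called higher and blue called lower at an FDR of 0.05, grey not called. In the depot panel Tcf21, Aldh1a2 and Wt1 lie furthest to the right, and in the iWAT sex panel Krt8, Krt7 and Krt18 lie furthest to the left. Tcf21 has no point in the sex panel, since no iWAT library held a count of it, and its depot fold depends on the prior count.

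Simple keratins, the intermediate filaments that mesothelial cells share with other simple epithelia, had a median summed level of 166 CPM in iWAT female, where the median of the summed members was 4.92 CPM. Their summed level (Krt7, Krt8, Krt18 and Krt19) was 1.96 to 56.2 CPM in iWAT male, 52.0 to 1686 in iWAT female (to 315 without replicate 9), 15.6 to 68.0 in pgWAT male and 81.7 to 250 in pgWAT female. Between depots Krt7 was called higher (log2 1.62, SE 0.60, FDR 0.0308) and Krt19 lower (-1.43, SE 0.42, FDR 0.00788) in pgWAT, and Krt8 (FDR 0.132) and Krt18 (FDR 0.299) were not called. The contrast averages the labelled sexes on a log scale, and the plain mean of Krt7 was not higher in pgWAT, at 23.5 ± 21.2 CPM against 27.2 ± 55.6 in iWAT. That iWAT mean was raised by iWAT female replicate 9 at 244 CPM of Krt7, where the next highest iWAT library had 55.5 CPM. Within male cultures Krt7, Krt8 and Krt18 were higher in pgWAT, 3 of 4 (11.8% of genes), and within female cultures Krt8 was lower, 1 of 4 (12.6%). The interaction was not called in the filtered fit (FDR 0.0981 for Krt7, 0.133 for Krt8 and 0.139 for Krt18) and was called for all 3 without the filter (largest FDR 4.39e-05). Without the 5 libraries of doubtful label the filtered fit called no keratin within male (smallest FDR 0.0935) or female cultures (smallest FDR 0.0686) or for the interaction (smallest FDR 0.0572), and the unfiltered fit called 3 higher and 1 lower in male, 4 lower in female and 3 for the interaction. Without iWAT female replicate 9 all 4 keratins were called between depots, and without pgWAT male replicate 4 or pgWAT female replicate 3 only 1 was.

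Between the iWAT sexes Krt7, Krt8 and Krt18 were lower in male (3 of 4, where 2.13% of genes were lower), with 3, 1 and 8 counts in the 10 male libraries and 304, 688 and 538 in the 9 female libraries. Epithelial markers moved in the same direction, and 8 of 14 (Epcam, Cdh1, Cldn3, Cldn4, Cldn7, Esrp1, Krt5 and Krt14) were lower in male without the filter, where 1.20% of features were. The summed epithelial level was 0 to 4.15 CPM in iWAT male and 19.2 to 1016 CPM in iWAT female, with 7 of the 14 genes, among them Epcam, Krt5 and Krt14, at 0 in all male libraries. The library with the highest keratin and epithelial levels, iWAT female replicate 9, had 0 counts of Msln, Upk3b, Upk1b and Lrrn4 and 4.92 CPM over all members, which was all Bnc1. In pgWAT the epithelial level was 0 to 5.37 CPM in male and 1.38 to 120 CPM in female, and it was 1.38 to 9.77 CPM in pgWAT female replicates 4 to 6, where the members were highest. The part of epithelial cells in the Msln difference of iWAT was not tested.

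**Figure D4:**
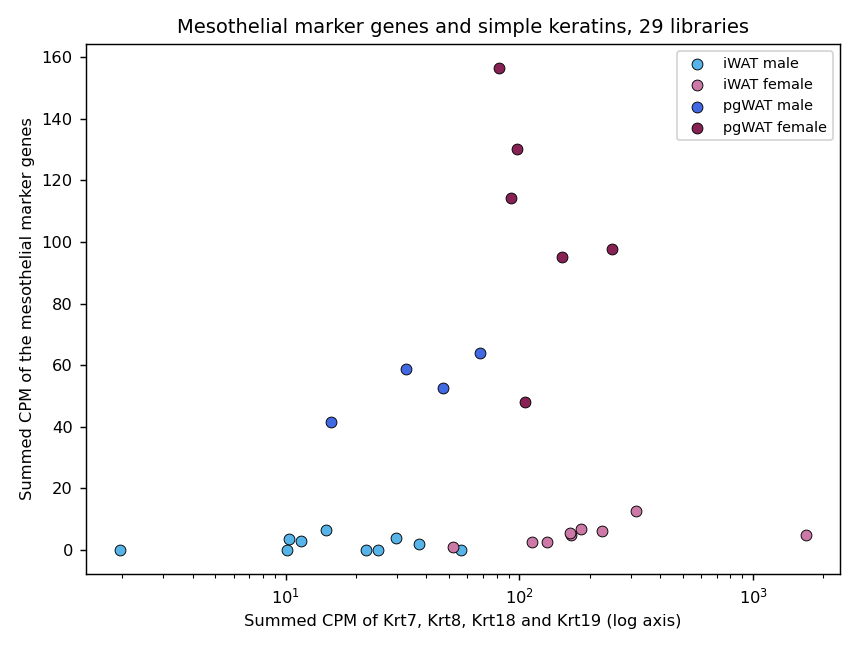
Summed CPM of the 7 members (y axis, linear) against the summed CPM of Krt7, Krt8, Krt18 and Krt19 (x axis, log scale) for the 29 libraries, coloured by depot and labelled sex. The iWAT female libraries reach 1686 CPM of keratins while staying at 12.6 CPM or less of the members, and the pgWAT male libraries have 41.7 to 63.9 CPM of the members at 68.0 CPM or less of keratins.

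Relatives of the members by sequence were listed to see which member of a family was used. Of 13 paralogs 11 had counts, and 2 of these were called higher in pgWAT without the filter (7.55% of features). The same 2 were among the 3 that passed the filter (20.2% of genes), Lrrn2 through its counts in pgWAT. Gpm6b, the sister gene of the barely detected Gpm6a, went from 9.85 ± 7.30 CPM in iWAT (SD, n = 19) to 66.8 ± 18.8 CPM in pgWAT (SD, n = 10; log2 2.80, SE 0.22, FDR 2.53e-12), and its groups did not overlap (highest iWAT 28.4, lowest pgWAT 32.0 CPM). Lrrn2, a relative of Lrrn4, went from 0.782 ± 1.34 to 13.3 ± 8.79 CPM (log2 3.56, SE 0.47, FDR 2.93e-07). Bnc2, with a log2 difference of -0.09 (SE 0.27), was not called. Gpm6b was also lower in iWAT male than in iWAT female (6.05 ± 3.83 against 14.1 ± 8.09 CPM; log2 -1.19, SE 0.34, FDR 0.0457).

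The genes most like the summed members were sought separately in each depot, over the 8851 other genes that passed the filter. Over the 10 pgWAT libraries the 10 highest Pearson correlations of log2 CPM were those of Dvl3, Agrn, Btbd7, Grina, Tmed2, Zfp523, Lrp10, Txnrd2, Phf3 and Smarcd1, with r from 0.835 to 0.880 and Spearman's rho from 0.770 to 0.903. None of them is on the lists above, and the mesothelial genes had lower values, with r at 0.735 for Slpi, 0.565 for Wt1, 0.535 for Tcf21 and -0.284 for Aldh1a2. Over the 19 iWAT libraries the 10 highest were Cnnm4, Gdf6, Pigs, Lbh, Insig2, Dffa, Aars, Jag1, Mn1 and Tnfrsf26 (r from 0.752 to 0.843, rho from 0.741 to 0.851), where the sum rested on 0 to 6 counts per library. Without the 2 libraries farthest from the median sum, r ran from 0.733 to 0.923 in pgWAT and from 0.653 to 0.840 in iWAT. The points share libraries and depth, and these values describe the libraries only.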

How the data were processed

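The 29 libraries were described in the labels as Smart-seq3 libraries of cultured SVF. The authors trimmed adapters (NGmerge), ran Salmon (1.9.0 per the submitters' processing notes) on a Gencode transcriptome of build GRCm39, took gene-level sums and dropped libraries below a minimum of detected genes. The deposited values are raw expected counts from reads with and without UMIs. They were rounded, 96.5% being whole already, as were all those of the 7 members. Groups are depot and sex as labelled, and replicates were numbered in order of deposition.

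Tests used edgeR 4.0.16 in R 4.3.3 (TMM, quasi-likelihood F test, two-sided, 1 term per group over all 29 libraries, Benjamini-Hochberg over all genes tested, FDR below 0.05). The filter (filterByExpr) kept 8853 genes, among them 2 members. The planned design held the filter, and the other 5 members are therefore given from a second fit of the same model without it. That fit estimated the spread anew over all 26512 features, so SEs and FDRs of the same gene differ between the fits. Between depots the SE of Krt8 was 0.89 with the filter and 0.52 without (FDR 0.132 and 0.0122). That of Upk3b was 0.36 and 0.42 (FDR 2.18e-14 and 1.10e-33). FDRs of the 2 fits are therefore not on 1 scale. CPM are on totals times TMM factors, and log2 CPM used a prior count of 2. Errors are SD between libraries, and SEs were derived from the F statistic. The tests were checked on simulated data for genes that passed the filter. That check did not cover the 5 members outside the filter, nor genes absent from 1 depot. Ratios have exact binomial 95% intervals. Alternatives were other scalings, no filter, DESeq2 1.42.0, limma-voom (limma 3.58.1), plate column as a factor, each library left out, and, chosen after seeing the data, single plate columns and the 5 pgWAT libraries of doubtful label left out (members, keratins and companion genes). Members and lists were chosen with earlier results of these data known. Named are all members, called genes of the companion, keratin and paralog lists, sex-check genes and the 10 most correlated genes per depot. Nkain4, Rspo1 and Crb2, and the epithelial genes, come from the unfiltered fit. The reference here was GRCm38, used for symbols (91.4% of features), transcript lengths, shared sequence and promoters, never for coordinates of the counted features.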

Additional observations from a re-analysis of the deposited data

Results flagged for a closer look

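Of 23 combinations of a member (or the sum) and a group with any spread, 7 had 1 library far above the rest by Dixon's test at 95%. The nominal rate of about once in 20 groups does not hold for counts that are mostly 0. A group with a single library above 0 always passes, so the 7 are not an excess over chance. In 5 of the 7 the library stood out because it held 1 or 2 counts where the rest of its group held 0. These were Upk3b in iWAT female replicate 5 (0.860 CPM), Upk1b in iWAT female replicate 3 (4.20 CPM), Gpm6a in pgWAT male replicate 1 (1.74 CPM), Gpm6a in pgWAT female replicate 2 (5.01 CPM) and Muc16 in pgWAT male replicate 4 (1.07 CPM). Bnc1 in iWAT male replicate 1 reached 6.59 CPM on 4 counts, with the next library at 2.91 CPM. The summed members in iWAT female replicate 3 came to 12.6 CPM on 6 counts, with the next at 6.72 CPM, and this library was the only one of its group in plate column 10. None of the 4 called members had a library standing apart in either pgWAT group.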

How the results depend on the processing

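Between depots, over both labelled sexes, the direction and call of Upk3b, Upk1b, Msln and Lrrn4 held under every alternative run for that contrast. These were other scalings, DESeq2, limma-voom, plate column as a factor, each library left out and doubtful pgWAT labels left out. Log2 fold changes ran from 5.51 to 7.62 for Upk3b. Leaving out single libraries moved the number of members called between depots from 2 to 3 overall and in each labelled sex, left it at 0 for the iWAT sexes, the pgWAT sexes and the interaction, moved mesothelial companion genes from 9 to 11 (depots) and from 0 to 1 (iWAT sexes), keratins from 1 to 4 (depots) with 3 throughout for the iWAT sexes, and the summed ratio from 21.1 to 26.0. Without the filter the members called were 4 between depots, 4 in each labelled sex and 1 between the iWAT sexes. The companion genes called were then 16 between depots and 3 between the iWAT sexes. More genes were tested without the filter, but calls also changed for genes tested in both fits. Krt8 between depots, for example, had an FDR of 0.132 with the filter and 0.0122 without it. Without the pgWAT libraries of doubtful label 4 members were called between depots and 4 in female cultures, 1 keratin between depots and 1 companion gene between the iWAT sexes. Within plate column 9 alone 1 member, Upk3b, was called in cultures labelled male, where both pgWAT wells are of doubtful label. Keratins called between depots were 1 by limma-voom and 4 with column as a factor, which also gave 1 companion gene between the iWAT sexes. The summed ratio was 6.38 within column 10, against a lone iWAT library of 6 counts, and 11.8 without Upk3b. The log2 fold change of Gpm6a between depots turned to -0.21 with column as a factor and ran from -0.23 (without pgWAT female replicate 2) to 1.15 with single libraries left out, and that of Bnc1 from -0.50 to 0.0255 (without iWAT male replicate 1). Unless a reason is given, the cause was not tested.

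No paired analysis was possible because the labels give no replicate number. Depth limits the 3 low members, for which 3 counts exceed most observed values.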

Other observations

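Markers of the other cells that crude SVF can hold were summed in the same way. Fibroblast markers averaged 9048 ± 1847 CPM in iWAT (SD, n = 19) and 16168 ± 4227 in pgWAT (SD, n = 10), and macrophage and leukocyte markers 1478 ± 637 and 3034 ± 2834. Endothelial markers averaged 126 ± 37.1 and 155 ± 42.5. Mural and smooth muscle markers ran from 629 to 3541 CPM in iWAT and from 1233 to 3017 in pgWAT, and Schwann cell markers from 0 to 28.0 and from 0 to 9.61. The macrophage level ran from 1169 to 8299 CPM over the 4 pgWAT male libraries, whose summed mesothelial markers lay between 41.7 and 63.9 CPM.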
